A study of Mus musculus with 10 samples.

Results

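Cholesterol synthesis genes were followed in 10 mouse retinas. The set held 8 genes, picked by symbol out of 25905 in the table. All 8 passed the filter for testing, a mean of 1 CPM or more over the retinas, as did 14210 genes in all. CPM are the counts of a gene scaled to a fixed library total. Of the 8, Hmgcs1, Idi1, Fdps, Fdft1, Sqle, Lss and Cyp51 encode enzymes of the route to cholesterol. Insig1 encodes a regulator of that route. The set is named for synthesis and uptake, but none of the 8 encodes an uptake receptor.

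The retinas came from wild-type C57BL/6J mice at postnatal day 34. They were the right and the left retina of mice 61, 64, 65, 66 and 68, so that there were 5 right and 5 left retinas. Every mouse had spent the last 10 days, from postnatal day 24, with a −20 dioptre lens over 1 eye and nothing over the fellow eye, a treatment that drives eye growth towards myopia. The labels name the side of a retina but not the side of the lens, so neither side stands for lens or control here.

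Cholesterol is built from acetyl-CoA through mevalonate, the isoprenoids and squalene to lanosterol, which is then trimmed to cholesterol. When sterol in the membrane of the endoplasmic reticulum is low, the carrier SCAP brings the transcription factor SREBP2 to the Golgi for cleavage, and the freed fragment switches on most genes of the route. When sterol is high, INSIG1 holds SCAP and SREBP2 back, and the gene for INSIG1 is itself an SREBP target. In the retina, cholesterol is both made locally and taken up from the circulation, and Müller glia are held to be a main site of its synthesis.

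SREBP2 acts on promoters through sterol regulatory elements, usually beside boxes for NF-Y and Sp1, so the sequence before the RefSeq start of the genes is shown first. RefSeq promoter windows on GRCm38.p6 were at hand for 5 of the 8 genes, Hmgcs1, Insig1, Idi1, Lss and Cyp51. Those for Fdps, Fdft1 and Sqle were not used here. The 250 bases before the RefSeq start were searched. Of these, the last 49 of Insig1, 105 of Idi1, 17 of Lss and 49 of Cyp51 lie inside the annotated gene, whose deposited start is farther upstream, and they are not printed. The rest is printed on the strand of the gene, but for Idi1, whose 3 matches all lie inside the gene. Capitals mark matches on either strand to CACNCCAC, the core of a sterol regulatory element, to CCAAT, the NF-Y box, and to GGGCGG, the Sp1 box. No matches overlapped.
Hmgcs1, chr13:119690101-119690350, plus strand: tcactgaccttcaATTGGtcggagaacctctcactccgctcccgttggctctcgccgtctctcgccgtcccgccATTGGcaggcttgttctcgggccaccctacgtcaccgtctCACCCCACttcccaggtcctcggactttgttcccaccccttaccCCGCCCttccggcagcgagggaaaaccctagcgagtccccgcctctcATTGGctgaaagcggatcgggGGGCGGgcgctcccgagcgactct
Insig1, chr5:28071162-28071362, plus strand: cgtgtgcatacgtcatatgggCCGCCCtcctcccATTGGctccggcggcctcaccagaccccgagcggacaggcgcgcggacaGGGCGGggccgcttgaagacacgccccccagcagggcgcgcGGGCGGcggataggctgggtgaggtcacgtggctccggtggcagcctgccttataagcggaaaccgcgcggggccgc
Lss, chr10:76531355-76531587, plus strand: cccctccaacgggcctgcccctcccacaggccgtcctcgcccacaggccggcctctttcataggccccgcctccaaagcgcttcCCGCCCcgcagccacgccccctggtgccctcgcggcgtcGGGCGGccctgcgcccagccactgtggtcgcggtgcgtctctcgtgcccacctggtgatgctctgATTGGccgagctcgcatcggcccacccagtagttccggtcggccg
Cyp51, chr5:4104747-4104947, minus strand: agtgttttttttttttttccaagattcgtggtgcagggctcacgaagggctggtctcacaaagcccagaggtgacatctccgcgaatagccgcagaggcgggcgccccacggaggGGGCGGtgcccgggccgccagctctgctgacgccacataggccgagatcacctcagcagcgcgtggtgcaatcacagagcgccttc

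All 5 windows of 250 bases held an NF-Y box and an Sp1 box. Of 32851 RefSeq windows of the same length, 33.9% held CCAAT and 32.7% held GGGCGG. Hmgcs1 and Insig1 each held 1 match to the sterol regulatory element core, a match found in 5.29% of windows. Counted from the start, the match lay at −136 to −129 in Hmgcs1, between an NF-Y box at −176 to −172 and an Sp1 box at −92 to −87, and at −9 to −2 in Insig1, inside the annotated gene. For Idi1, Lss and Cyp51 these letters were not in the window, which says nothing about binding of the factor.

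**Figure D1:**
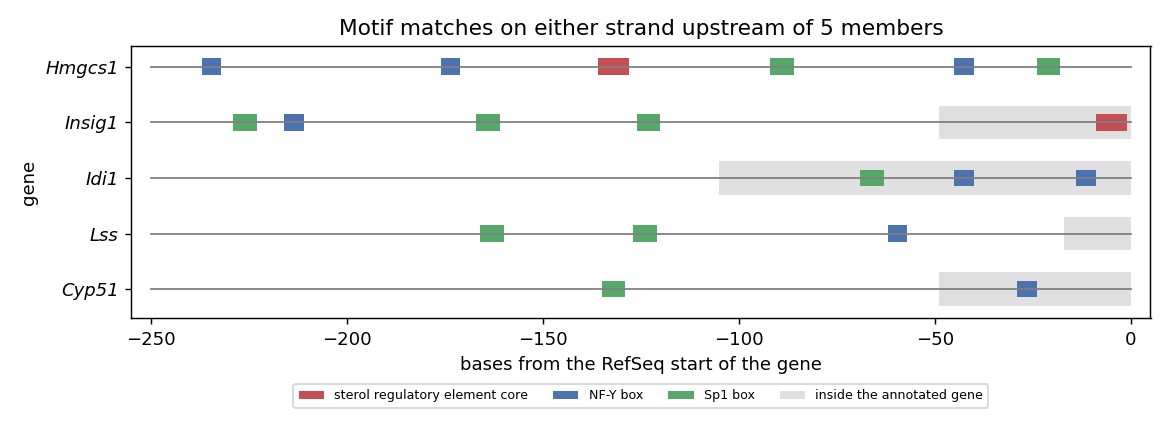
Position of motif matches in the 250 bases before the RefSeq start of 5 genes (horizontal axis, bases from the start), in red for the sterol regulatory element core, in blue for the NF-Y box and in green for the Sp1 box, with the stretch inside the annotated gene in grey. The red match lies at −136 to −129 in Hmgcs1 and at −9 to −2 in Insig1, and the other 3 genes have none.

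Together the 8 genes measured 143.3 to 170.9 CPM per retina, which rested on 13343 to 17653 counts. Those counts were estimated from the step between low values, at 89.6 to 113.7 counts per CPM. The rarest gene of a library rested on 921 to 1216 counts. Rod markers (Sag, Gnat1, Nrl, Pdc and Rcvrn) summed to 4455 to 4725 CPM on the right and 4477 to 4870 CPM on the left. The defining markers Best1 of pigment epithelium and Mobp of oligodendrocytes were at most 0.131 CPM and 0.113 CPM. The right retina of mouse 65 stood apart in lens markers, with a sum of 939 CPM against 10.6 to 128.5 CPM in the other 9 retinas. The left retina of mouse 68 stood apart in muscle markers, with 239.8 CPM against 26.3 to 31.9 CPM elsewhere. Mouse 61 stood apart in both eyes in the summed immediate early genes Egr1, Fos, Fosb, Junb, Nr4a1, Ier2, Arc and Dusp1. They reached 62.7 CPM in its right and 76.1 CPM in its left retina, against 19.2 to 26.4 CPM elsewhere. For the right retina of mouse 64 the labels report damage to 1 raw read file. In such bulk tissue, fewer cells of a type and less RNA per cell cannot be told apart.

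Levels can be set against each other only per length. Per kilobase of all annotated exons (GENCODE M21), Hmgcs1 led with 8.42 ± 0.789 CPM per kb (SD over 10 retinas), followed by Insig1 with 6.92 ± 0.919. Hmgcs1 stood above Insig1 in 10 of 10 retinas, although the ranges of the 2 genes overlapped. Cyp51 (4.34 ± 0.356), Fdft1 (4.01 ± 0.348), Idi1 (3.18 ± 0.251), Fdps (2.72 ± 0.21), Lss (2.31 ± 0.143) and Sqle (1.97 ± 0.159 CPM per kb) came next. From Cyp51 to Sqle the ranges of neighbours in this order met, but that of Cyp51 lay wholly below that of Insig1. The order depends on the length used. Per kilobase of the longest coding transcript, Hmgcs1 still led, with 11.2 ± 1.05 CPM per kb, but Fdps moved up to 8.29 ± 0.641 and Lss to 5.34 ± 0.33, while Idi1 came last with 3.68 ± 0.291.

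Right and left retinas were compared first. On the log2(CPM + 1) scale, limma with the mouse as a block and Benjamini-Hochberg adjustment over all genes called 0 of the 8 genes, and 0% of all tested genes. At an unadjusted p under 0.05 there were 0 of the 8, with 333 of all tested genes (2.34%). The adjusted p was 0.9996 for each of the 8. Each difference was smaller than the range of the gene's mouse means, and the 95% intervals of the 8 differences together spanned −0.19 to 0.16 log2 units. The median difference was 0.0015 log2 units in the 8 genes and 0.0017 in all tested genes.

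At the entry to the route stands Hmgcs1 (chromosome 13, bases 119690379 to 119708260, plus strand, GRCm38), which makes HMG-CoA from acetoacetyl-CoA. It measured 36.8, 37.5, 42.0, 37.98 and 40.7 CPM in the right retinas of mice 61, 64, 65, 66 and 68, and 34.9, 33.1, 45.2, 41.4 and 37.3 CPM in the left retinas in the same order. Both retinas of mouse 65 were above all others, and the sides overlapped. The mean was 39.0 ± 2.23 CPM on the right and 38.4 ± 4.93 CPM on the left (SD, n = 5 each). On the log2 scale the right was higher by 0.03 (SE 0.05, 95% interval −0.08 to 0.14), less than the spread between mice.

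Idi1 and Fdps turn mevalonate-derived units into farnesyl diphosphate. Idi1 (chromosome 13, bases 8885501 to 8892451, plus strand), the isomerase of isopentenyl diphosphate, measured 10.6, 9.46, 11.9, 11.2 and 11.8 CPM on the right and 10.1, 11.2, 12.4, 11.5 and 11.5 CPM on the left in the same order of mice. Mouse 65 was again highest, and the lowest value of Idi1 was in the right retina of mouse 64. Fdps (chromosome 3, bases 89093588 to 89101959, minus strand), farnesyl diphosphate synthase, measured 10.9, 10.4, 12.5, 11.7 and 11.5 CPM on the right and 12.8, 12.5, 11.3, 10.3 and 10.9 CPM on the left. Here the highest retinas were the left of mice 61 and 64 and the right of mouse 65, so that no mouse stood apart in both eyes. The differences were −0.04 log2 units for Idi1 (95% interval −0.16 to 0.08) and −0.02 for Fdps (95% interval −0.17 to 0.14).

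Fdft1 and Sqle commit farnesyl diphosphate to sterols. Fdft1 (chromosome 14, bases 63145150 to 63179578, minus strand), squalene synthase, measured 16.0, 15.4, 17.9, 19.7 and 14.8 CPM on the right and 18.4, 17.0, 16.2, 16.7 and 17.3 CPM on the left. Its right retinas spread more widely than its left ones, with SDs of 2.02 and 0.83 CPM, and they held both the highest and the lowest value. Sqle (chromosome 15, bases 59315077 to 59331192, plus strand), squalene epoxidase, a rate-limiting oxygen-dependent step, measured 10.4, 10.2, 11.8, 10.7 and 12.6 CPM on the right and 9.73, 10.5, 11.7, 10.96 and 10.9 CPM on the left. Its highest value was in the right retina of mouse 68, ahead of both retinas of mouse 65. The differences were −0.04 log2 units for Fdft1 (95% interval −0.19 to 0.12) and 0.05 for Sqle (95% interval −0.07 to 0.16). Fdft1 overlaps Ctsb on the opposite strand, at 71.2 to 91.2 CPM, and Cyp51 overlaps Akap9 in the same way, at 125.6 to 150.9 CPM. Whether counting used the strand is not given in the sources used here.

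Lss closes the sterol rings and Cyp51 begins the trimming of lanosterol. Lss (chromosome 10, bases 76531588 to 76557138, plus strand), lanosterol synthase, measured 24.5, 23.7, 26.9, 23.7 and 24.6 CPM on the right and 26.6, 25.4, 25.3, 21.98 and 26.5 CPM on the left. It varied least of the 8, by 6.19% of its mean over the 10 retinas (coefficient of variation). Cyp51 (chromosome 5, bases 4081145 to 4104746, minus strand), the lanosterol demethylase, measured 18.04, 18.2, 21.1, 19.1 and 19.8 CPM on the right and 18.6, 16.9, 22.3, 18.8 and 18.6 CPM on the left. As with Hmgcs1, both retinas of mouse 65 were above the other 8. The differences were −0.02 log2 units for Lss (95% interval −0.13 to 0.08) and 0.02 for Cyp51 (95% interval −0.08 to 0.11).

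Insig1 (chromosome 5, bases 28071363 to 28078662, plus strand), the sterol-regulated brake, varied most of the 8, by 13.3% of its mean. It measured 21.5, 18.4, 26.7, 21.2 and 21.02 CPM on the right and 20.3, 18.1, 26.0, 20.1 and 20.8 CPM on the left. The right retina was the higher one in 5 of 5 mice, by 0.01 to 0.08 log2 units, and the difference was 0.05 log2 units (SE 0.04, 95% interval −0.04 to 0.13). It was the only 1 of the 8 to be higher on the right in every mouse, against 2.78% of all tested genes. None of the 8 was lower on the right in every mouse, against 2.01% of all genes. An exact two-sided sign-flip permutation test on 5 pairs can reach no p smaller than 0.0625. With the GC and length trend described further on removed, Insig1 was higher on the right in 4 of 5 mice.

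**Figure D2:**
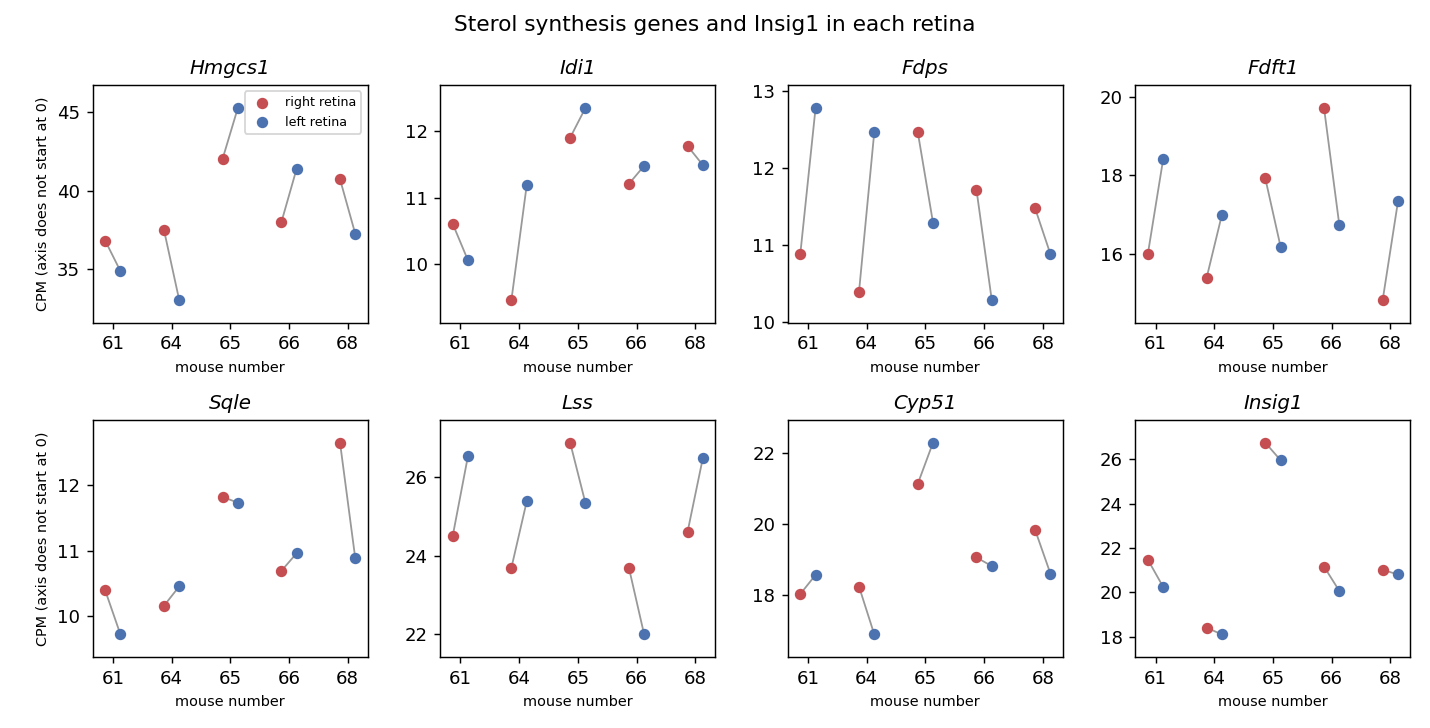
CPM of the 8 genes (vertical axes, which do not start at 0) in the right retina (red) and the left retina (blue) of each mouse, with fellow retinas joined by a line. Insig1, Cyp51, Hmgcs1 and Idi1 have both retinas of mouse 65 above the other 8, and the sides overlap in all 8 panels.

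Mouse 65 had the highest summed level of the 8 genes in both eyes. The 8 genes summed to 170.9 CPM in its right and 170.4 CPM in its left retina, against 143.3 to 156.9 CPM in the other right and 144.6 to 153.8 CPM in the other left retinas. Its mean was the highest of the 5 mice for 7 of the 8 genes, where 18.4% of all tested genes were highest in that mouse, and Fdft1, highest in mouse 66, was the exception. For 2 of the 7 the lead was a near tie: Sqle averaged 11.78 CPM in mouse 65 and 11.77 CPM in mouse 68, and Fdps 11.88 CPM in mouse 65 and 11.83 CPM in mouse 61. For 4 of the 8 genes (Hmgcs1, Idi1, Cyp51 and Insig1) both retinas of mouse 65 lay above the other 8 retinas. This held for 3.19% of all tested genes in mouse 65, and for 22.5% in any 1 of the mice. Mouse 65 was singled out after the values were seen.

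Differences between the 5 mice were tested with the moderated F-test of limma and Benjamini-Hochberg adjustment over all genes, which called 1 of the 8, Insig1, and 0.570% of all tested genes. The mouse means of Insig1 were 20.9, 18.3, 26.4, 20.6 and 20.9 CPM in mice 61, 64, 65, 66 and 68, a range of 0.51 log2 units (limma adjusted p = 0.0232). Beside that range the fellow retinas of a mouse lay close together, 0.05 log2 units apart on average. At an unadjusted p under 0.05 there were 3 of the 8, with 13.8% of all genes, namely Insig1, Cyp51 and Hmgcs1. The mouse means of Cyp51 ranged over 0.29 and those of Hmgcs1 over 0.30 log2 units, and neither passed (limma adjusted p = 0.277 and 0.305). Those of Idi1, Sqle, Lss, Fdft1 and Fdps ranged over 0.22, 0.21, 0.19, 0.17 and 0.10 log2 units and did not pass. The median range was 0.21 log2 units in the 8 genes and 0.21 in all tested genes. In the 4065 tested genes whose mean lay within the span of the 8 it was 0.18 log2 units. Without mouse 61 or 68, or without the variance trend, the range of Insig1 was again 0.51 log2 units but the call was lost (limma adjusted p = 0.0815, 0.0646 and 0.122). It was lost with a range of 0.34 without mouse 64 (0.0702), and with a range of 0.19 without mouse 65 (0.331).

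None of the marker lists had both retinas of mouse 65 above the other 8. Lens markers (10 of 10 in the table, none at 0) differed most between its eyes, with 939 CPM in the right and 10.6 CPM in the left retina, where Insig1 stood at 26.7 and 26.0 CPM. Müller glia markers (7 of 7 in the table, none at 0) summed to 907 CPM in its right and 793 CPM in its left retina, within the 776 to 925 CPM of the other mice. Summed mitochondrially encoded RNA was 4569 CPM in its right and 5063 CPM in its left retina, against 3641 to 5215 CPM in the other mice. The part of these RNAs in the mouse difference was not tested.

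Over the 10 retinas, with the values as deposited, the 8 genes fell into 5 that varied together and 3 that varied little with them. The division was made after the correlations were seen. Within Hmgcs1, Cyp51, Insig1, Sqle and Idi1, Pearson's r of the log2 values ran from 0.59 to 0.90 over 10 pairs of genes, with a median of 0.72. The pairs Hmgcs1 with Cyp51 and Insig1 with Cyp51 both reached 0.90, and Sqle with Idi1 reached 0.80. Between these 5 and Fdps, Fdft1 and Lss, r ran from −0.36 to 0.39 with a median of 0.05. Within Fdps, Fdft1 and Lss it ran from 0.24 to 0.68. These are descriptions over 10 libraries of 5 mice, which share mouse and preparation, and no test is attached to them.

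The link among the 5 rested in part on mouse 65. Without that mouse the median r within the 5 was 0.54, over a range of 0.30 to 0.81 in 8 retinas. Without each of the other mice it was 0.70 to 0.80. Ranked among all 14209 other tested genes, Cyp51 was the 16th most like Insig1 and the 43rd most like Hmgcs1, while Hmgcs1 and Insig1 were the 17th and the 20th most like Cyp51. Sqle was the 27th most like Idi1, and Idi1 the 71st most like Sqle. The other 14 ranks among the 5 genes ran from 193 to 1194. Neither Fdps, Fdft1 nor Lss had another of the 8 among its 100 most similar genes.

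**Figure D3:**
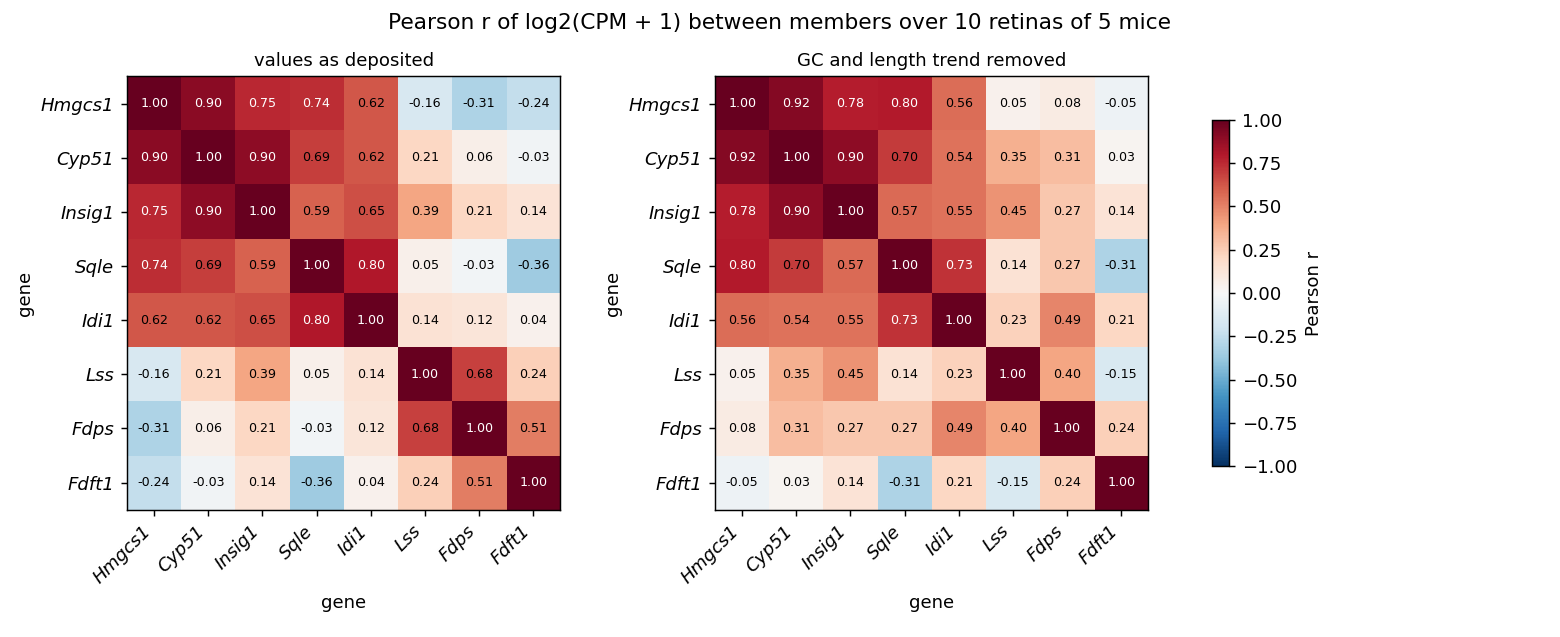
Pearson's r between the log2(CPM + 1) values of each pair of the 8 genes over 10 retinas, with the values as deposited and after removal of a per-library trend on GC content and transcript length (red positive, blue negative). Hmgcs1, Cyp51, Insig1, Sqle and Idi1 form a block with a median r of 0.72 as deposited and 0.71 after removal of the trend.

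Fellow eyes of 1 mouse also differed in step for some of the 8. In 5 of 5 mice, the retina with more Fdft1 also had more Lss and less Hmgcs1. Right minus left, Fdft1 differed by −0.19, −0.14, 0.14, 0.22 and −0.21 log2 units in mice 61, 64, 65, 66 and 68. Lss differed by −0.11, −0.10, 0.08, 0.10 and −0.10, and Hmgcs1 by 0.08, 0.18, −0.10, −0.12 and 0.12, in the same order. Fdps went with Fdft1 in 4 of 5 mice (all but mouse 68), and Idi1 went against it in 4 of 5 (all but mouse 64). Sqle, Cyp51 and Insig1 went against it in 3 of 5, so that the division by correlation was not repeated here. Of all tested genes, 17.0% shared the sign of Fdft1 in all 5 mice and 5.90% had the opposite sign in all 5. The pattern was noticed after the values were seen and carries no test, and because the lens side is not known it cannot be tied to the lens. The mean absolute difference between fellow eyes was 0.18 log2 units for Fdft1, 0.17 for Fdps and 0.12 for Hmgcs1, against 0.05 for Insig1. Its median over all tested genes was 0.11.

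Mitochondrially encoded RNA and GC content moved with this pattern. The 9 listed mitochondrially encoded genes summed to 3928, 5215, 4569, 4425 and 5017 CPM on the right and 3641, 4124, 5063, 5072 and 4439 CPM on the left, so that the retina with more Fdft1 had less of them in 5 of 5 mice. Their part in the result was not tested. The longest coding transcripts of Fdps, Lss and Fdft1 are 54.5%, 52.2% and 51.8% GC. Those of Sqle, Insig1, Cyp51, Hmgcs1 and Idi1 are 49.3%, 48.2%, 46.2%, 43.1% and 41.9% GC. Tested protein-coding genes that shared the 5 signs of Fdft1 had a median GC of 53.8%, those with the 5 opposite signs 43.6%, and all of them 49.9%. Fdps, Lss and Fdft1 have the highest GC of the 8.

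In a step added after seeing the data, a trend on GC and length was removed from each library. Of 11801 genes, 8.97% then shared the 5 signs of Fdft1 and 8.05% opposed them. The differences of Fdft1 shrank to −0.13, −0.09, 0.07, 0.16 and −0.19 log2 units, and those of Lss to −0.05, −0.05, 0.02, 0.04 and −0.07. Those of Hmgcs1 stayed at 0.06, 0.15, −0.12, −0.12 and 0.11. The signs of all 3 genes were as before in 5 of 5 mice. The median r within the 5 genes was 0.71, and within Fdps, Fdft1 and Lss r ran from −0.15 to 0.40 with a median of 0.24. Between the 5 and these 3, r ran from −0.31 to 0.49. Its median there was 0.21, against 0.05 as deposited, so the division was less sharp. Insig1 still passed between mice (limma adjusted p = 0.01565), and again none of the other members did.

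**Figure D4:**
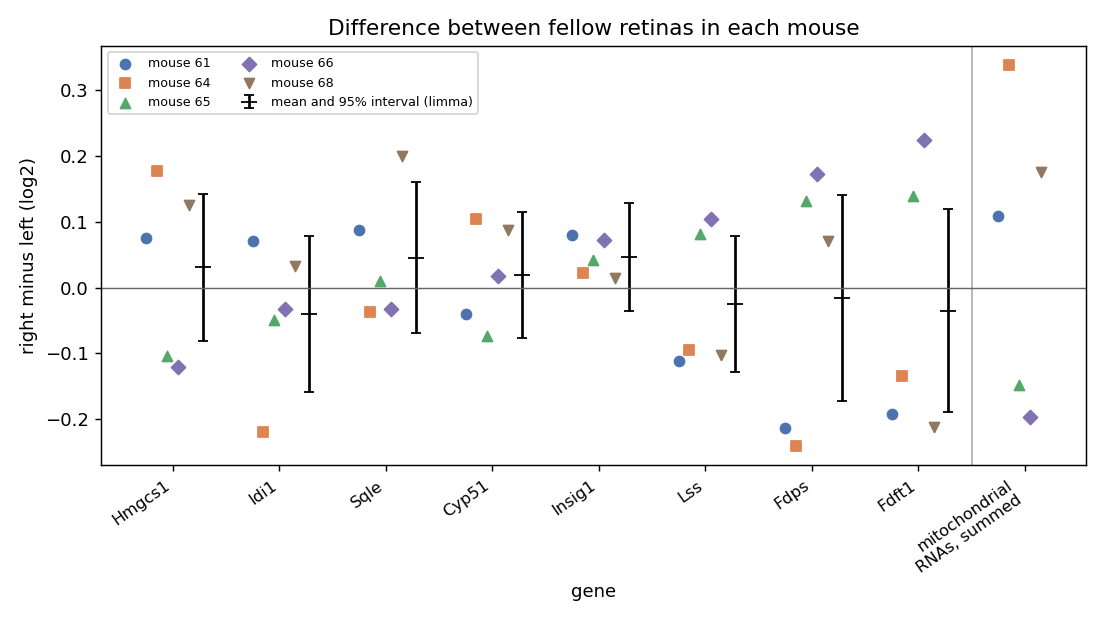
Right minus left on the log2 scale in each mouse for the 8 genes and for summed mitochondrially encoded RNA (a log2 ratio of sums), with the mean and 95% interval of the limma fit beside each gene. Mice 65 and 66 lie above 0 and mice 61, 64 and 68 below 0 for Lss and Fdft1, and the reverse for Hmgcs1 and the mitochondrial RNAs.

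The rest of the pathway was read from lists of the other sterol enzymes, the SREBP machinery, uptake and handling, efflux, and fatty acid synthesis. Of these lists, 14 of 14, 6 of 6, 11 of 12, 5 of 7 and 10 of 10 genes were tested. Cd36, a scavenger receptor, and the oxysterol genes Nr1h3 and Ch25h lay under the filter, at no more than 0.802, 0.703 and 0.0669 CPM. Limma called none of the tested genes between the sides or between mice (smallest adjusted p = 0.224 between mice). At an unadjusted p under 0.05 between mice there were 1, 0, 1, 1 and 2 genes, with 13.8% of all tested genes. Median ranges of mouse means were 0.23, 0.21, 0.17, 0.25 and 0.16 log2 units.

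Among the other sterol enzymes, the lowest p between mice was that of Sc5d, which acts late in the route as lathosterol desaturase. It measured 22.2 CPM in the right and 24.5 CPM in the left retina of mouse 65, against 20.3 to 21.9 CPM in the other right and 18.2 to 22.1 CPM in the other left retinas (limma adjusted p = 0.354). Sc5d and the demethylation enzyme gene Msmo1 were the 2 of 14 genes with both retinas of mouse 65 above the other 8, and Msmo1 is named after its values were seen. Of all tested genes, 3.19% did so in mouse 65 and 22.5% in any 1 of the mice. The sterol reductase gene Tm7sf2 and the mevalonate pathway kinase gene Pmvk averaged 5.98 ± 0.542 and 7.63 ± 0.897 CPM on the right and 5.80 ± 0.586 and 8.09 ± 1.52 CPM on the left. Of the 14 genes 4 (Acat2, Pmvk, Mvd and Lbr) shared the 5 signs of Fdft1, as 17.0% of all tested genes did, and Sc5d had the opposite ones.

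In the SREBP machinery, Srebf1, which encodes the SREBP factor better known for fatty acid synthesis, averaged 21.7 ± 1.99 CPM on the right and 21.3 ± 3.24 CPM on the left. Its mouse means ranged over 0.30 log2 units, and those of Insig2, the second brake, and Mbtps1, the Golgi protease that makes the first cut of SREBP, over 0.34 and 0.22. Srebf2, the gene of SREBP2, named after its values were seen, measured 22.6, 21.97, 24.7, 25.4 and 23.5 CPM on the right and 27.0, 26.4, 21.7, 23.1 and 22.03 CPM on the left. It was not highest in mouse 65. The 5 signs of Fdft1, shared by 17.0% of all tested genes, were found in 3 of these 6 genes (Srebf1, Scap and Mbtps1), in 1 of 11 uptake genes (Lrp1), in 1 of 5 efflux genes (Abcg4) and in 4 of 10 fatty acid genes (Acaca, Fasn, Scd2 and Acss2). None of the machinery had both retinas of mouse 65 on top.

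Of the uptake genes, Vldlr, a lipoprotein receptor, averaged 148.7 ± 6.26 CPM on the right and 148.5 ± 9.07 CPM on the left, with a mouse range of 0.17 log2 units. Lrp8, a related receptor, averaged 22.5 ± 1.21 and Npc2, a carrier of sterol out of lysosomes, 7.71 ± 0.704 CPM on the right, against 21.6 ± 1.35 and 7.97 ± 1.10 CPM on the left. Npc2 was highest in both retinas of mouse 61, at 8.51 CPM on the right and 9.81 CPM on the left (range 0.36 log2 units, limma adjusted p = 0.305). Of all tested genes, 13.2% had both retinas of mouse 61 above the other 8. Among efflux genes Abcg1, a sterol exporter, was lowest in both retinas of mouse 61. It measured 39.8 CPM on the right and 37.9 CPM on the left there, against 41.0 to 47.2 CPM elsewhere (range 0.26 log2 units, limma adjusted p = 0.235). Both retinas of that mouse lay below the other 8 for 4.87% of all tested genes. Abcg4 and Cyp27a1, a mitochondrial sterol hydroxylase, ranged over 0.25 and 0.29 log2 units.

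Among fatty acid genes under SREBP control, the lowest p between mice was that of Acly, which makes cytosolic acetyl-CoA for both fatty acids and sterols. It measured 65.8 CPM on the right and 72.6 CPM on the left in mouse 61, against 54.6 to 62.8 CPM in the other mice (limma adjusted p = 0.224). The desaturase genes Fads2 and Scd1 ranged over 0.25 and 0.43 log2 units between mice and did not pass. None of the 10 had both retinas of mouse 65 on top.

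**Figure D5:**
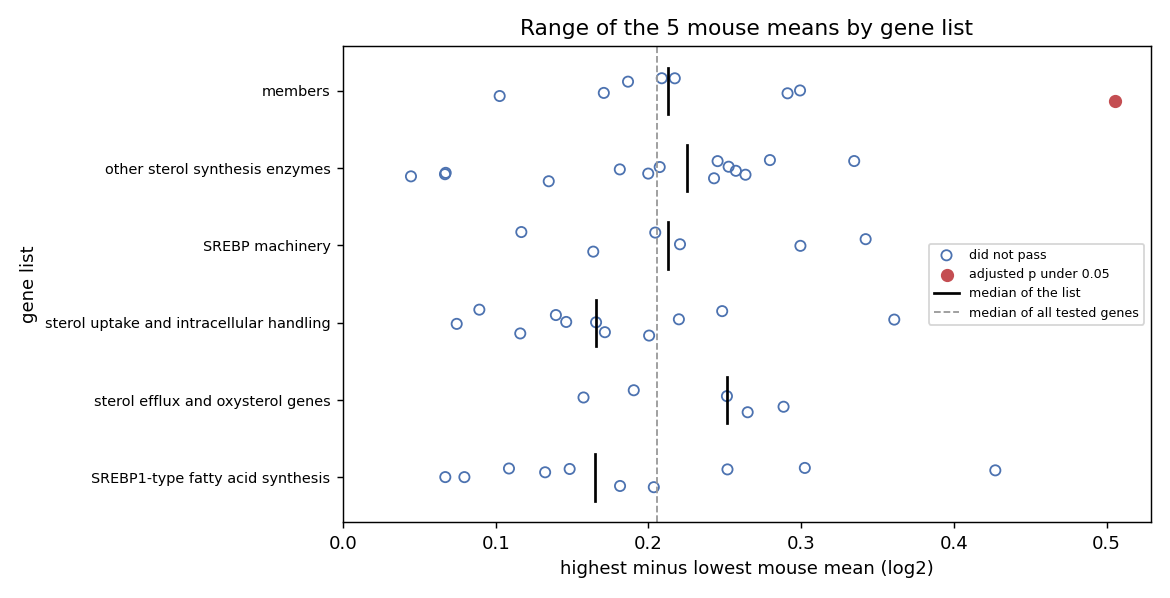
Highest minus lowest mouse mean on the log2 scale for each of the 8 genes (members) and each tested gene of 5 further lists, with a black bar at the median of a list and a dashed line at the median of all tested genes, 0.21. Insig1, at 0.51, is the only filled point, that is, the only gene with an adjusted p under 0.05.

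The genes most like the 8 were not sterol genes. The mean of the 8 standardised profiles had its highest Pearson's r over the 10 retinas with Ighmbp2, a helicase gene (0.94), Rpgrip1, a gene of the photoreceptor connecting cilium (0.93), Sec11a, a signal peptidase subunit gene (0.92), Clcn5, an endosomal chloride transporter gene (0.90), the zinc finger gene Zfp398 (0.89) and Thumpd1, a gene of tRNA acetylation (0.88). The median over all other tested genes was 0.04. Rpgrip1 measured 599 CPM in the right and 596 CPM in the left retina of mouse 65, against 536 to 575 CPM in the other right and 532 to 574 CPM in the other left retinas. Of the 8 themselves, Insig1 (0.91) and Cyp51 (0.85) were closest to their mean and Fdft1 (0.26) was farthest, each being part of that mean.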

How the data were processed

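Total RNA of 5 right and 5 left retinas was sequenced after ribosomal RNA depletion with a stranded kit, per the labels' protocols. The submitters' processing notes list STAR, Partek and GRCm38 (mm10) without versions, and neither the counting rule nor its filters are known here. The deposited values are CPM not divided by length, with 0.0001 added by the authors, a unit read from the values. The step of low values gave 29670000 to 37230000 counts per library in listed genes. At most 91.5% of low values were whole multiples of it within a tolerance of 0.1, so no count test was run.

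Values were analysed as log2(CPM + 1), which understates changes of low genes. limma 3.58.1 (R 4.3.3) with trended variances fitted right minus left with the mouse as a block, since fellow retinas share an animal, and tested mouse terms by a moderated F-test with side as a term. The fellow retinas deviated together, with correlations across genes of 0.607, 0.143, 0.166, 0.172 and 0.311. Benjamini-Hochberg adjustment ran over 14210 genes at 0.05, and the fits were tested on simulated data. Exon lengths and GC are from GENCODE M21, whose coordinates matched the deposited ones for all 8 genes. Named beside the 8 genes are, per pathway list, those that pass or else the 3 of lowest p between mice, and the 6 genes most like the mean of the 8, leaving out genes without an assigned name. Genes and lists were chosen with earlier results of these data known. Alternatives were other pseudocounts, filters, scalings and variance models, no block, each mouse left out and, added after seeing the data, removal of a GC and length trend.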

Additional observations from a re-analysis of the deposited data

Results flagged for a closer look

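Among the 16 groups of 5 retinas (8 genes on 2 sides), 2 had a retina far from the other 4, both for Lss. The right retina of mouse 65 stood above the other right retinas at 26.9 CPM, and the left retina of mouse 66 below the other left retinas at 21.98 CPM. Chance flags about 1 in 20 such groups.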

How the results depend on the processing

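Right against left, 0 genes and 0 of the 8 were called under every alternative run, including 0.1 and 5 CPM as pseudocount, no filter, no replicate block (the fit without pairing), median-ratio scaling, quantile normalization, no variance trend, removal of the GC and length trend, and each mouse left out. The pairing thus changed no call. Of the 104 alternative values for the differences of the 8 genes, 7 changed sign, all where a mouse was left out: Hmgcs1 then ran from −0.00597 to 0.068, Idi1 from −0.067 to 0.0054, Fdps from −0.063 to 0.040, Fdft1 from −0.10 to 0.0092 and Cyp51 from −0.0022 to 0.042 log2 units. None was called, so the direction of the side difference is undetermined for these genes. Between mice, 81 genes were called, against 36 without the variance trend, 125 after removal of the GC and length trend and 23 to 88 with a mouse left out (23, 53 and 39 without mouse 61, 66 and 68). Of the 8, 1 was called, against 0 without the trend and 0 to 1 with a mouse left out, since Insig1 kept its call without mouse 66 alone. The cause was not tested. Summed levels of the 8 moved by less than the spread between mice under median-ratio scaling. The rarest of the 8 genes rested on 921 to 1216 counts per library, and the effect of depth on the side differences was not tested.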
